A study of Mus musculus with 7 samples.

Results

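The heat shock and DnaJ chaperones are the protein-coding mouse genes whose symbols start with Hspa, Hspb, Hspd, Hspe, Hsph or Hsp90, or with Dnaja, Dnajb or Dnajc and a number. The files held 74 such genes among 56953 annotated genes. By the site where the protein is generally known to work, 40 were placed in the cytosol or nucleus, 13 in the endoplasmic reticulum (ER), 10 in mitochondria and 11 elsewhere or nowhere certain. The prefix also takes in Hspbp1, Hspbap1 and Hspb11, which are not classical heat shock proteins. A further 14 pseudogenes with these prefixes were left out.

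The RNA came from tumours of the mouse melanoma line B16, taken from mice 5 days after treatment. All mice received radiotherapy at 8 Gy, and the 3 AAV-iIL12 and 4 AAV-iLuc libraries differed in the adeno-associated virus vector given with it. The label "WT" stands in the titles of the AAV-iIL12 libraries only, and the host strain, age and what "i" abbreviates were not given in the sources used here. Sorting kept live cells negative for both CD45, carried by leukocytes, and CD31, carried by endothelium, so any cell type without those markers could be present. The series describes its libraries as mice, and the spread between libraries was taken as the spread between animals. No group without radiotherapy was analysed here.

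HSP70 proteins hold unfolded segments of other proteins and release them in a cycle driven by ATP. J proteins, named for the domain first found in bacterial DnaJ, bring clients to HSP70 and start ATP hydrolysis, while HSP110 proteins and other exchange factors reset the cycle. HSP90 proteins act later, on nearly folded clients such as kinases and steroid receptors, and the barrel of Hspd1 with its lid Hspe1 folds proteins inside mitochondria. The stress-inducible genes of the set are classical targets of the heat shock factor Hsf1, and ER members such as Hspa5, Hsp90b1 and Dnajb9 are classical targets of the unfolded protein response.

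Levels are given as CPM, counts relative to the library total, scaled between libraries by TMM. A gene was called where the adjusted p of edgeR's quasi-likelihood test over all 13990 genes tested was under 0.05. A log2 fold change is AAV-iIL12 over AAV-iLuc, ± its standard error (SE). In bulk RNA, fewer cells of a type and less RNA per cell cannot be told apart.

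Total counts per library ran from 16356653 to 19080587, and the 74 genes held 1.13% to 1.46% of them. Melanocyte markers were abundant in all libraries, with a summed level of 27845 to 28742 CPM in AAV-iIL12 and 22839 to 25991 CPM in AAV-iLuc. Of the 7, 3 were called higher, where 23.5% of all genes tested were. The 12 leukocyte markers summed to 25.3 to 34.9 CPM against 16.3 to 33.2 CPM, and none of the 6 tested was called. Cd68 alone measured 15.7 to 21.2 CPM against 13.9 to 16.8 CPM, so the sum says little about the others. Cd8a, not tested, had 6, 4 and 6 counts in AAV-iIL12 and 0 in AAV-iLuc. Lyz2 was highest in AAV-iLuc replicate 1, at 6.50 CPM. The 5 endothelial markers summed to at most 0.609 CPM in any library, with Cdh5 and Emcn at 0 in all of them. The 7 fibroblast and pericyte markers summed to 42.4 to 114 CPM against 62.0 to 228 CPM, with the highest sum in AAV-iLuc replicate 3 and none of 6 called. Of 10 immediate-early genes, which dissociation of tissue can induce, 9 were called higher, against 23.5% of all genes tested. Their sum was 3319 to 4522 CPM against 1637 to 1975 CPM. The part of these markers and of dissociation in the chaperone values was not tested.

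Of the 74 chaperone genes, 62 had enough counts to be tested, and 9 were called higher and 20 lower in AAV-iIL12. The 29 calls made 46.8% of the genes tested, against 47.2% of all genes tested. Higher calls made 14.5% of the chaperones against 23.5% of all genes, and lower calls 32.3% against 23.7%. The median log2 fold change was -0.08, against -0.01 over all genes tested. The groups did not overlap for 31 of the 62 genes, against 52.5% of all genes tested. A share called near that of all genes is not a result about these genes, and the values of the single members follow by compartment.

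**Figure D1:**
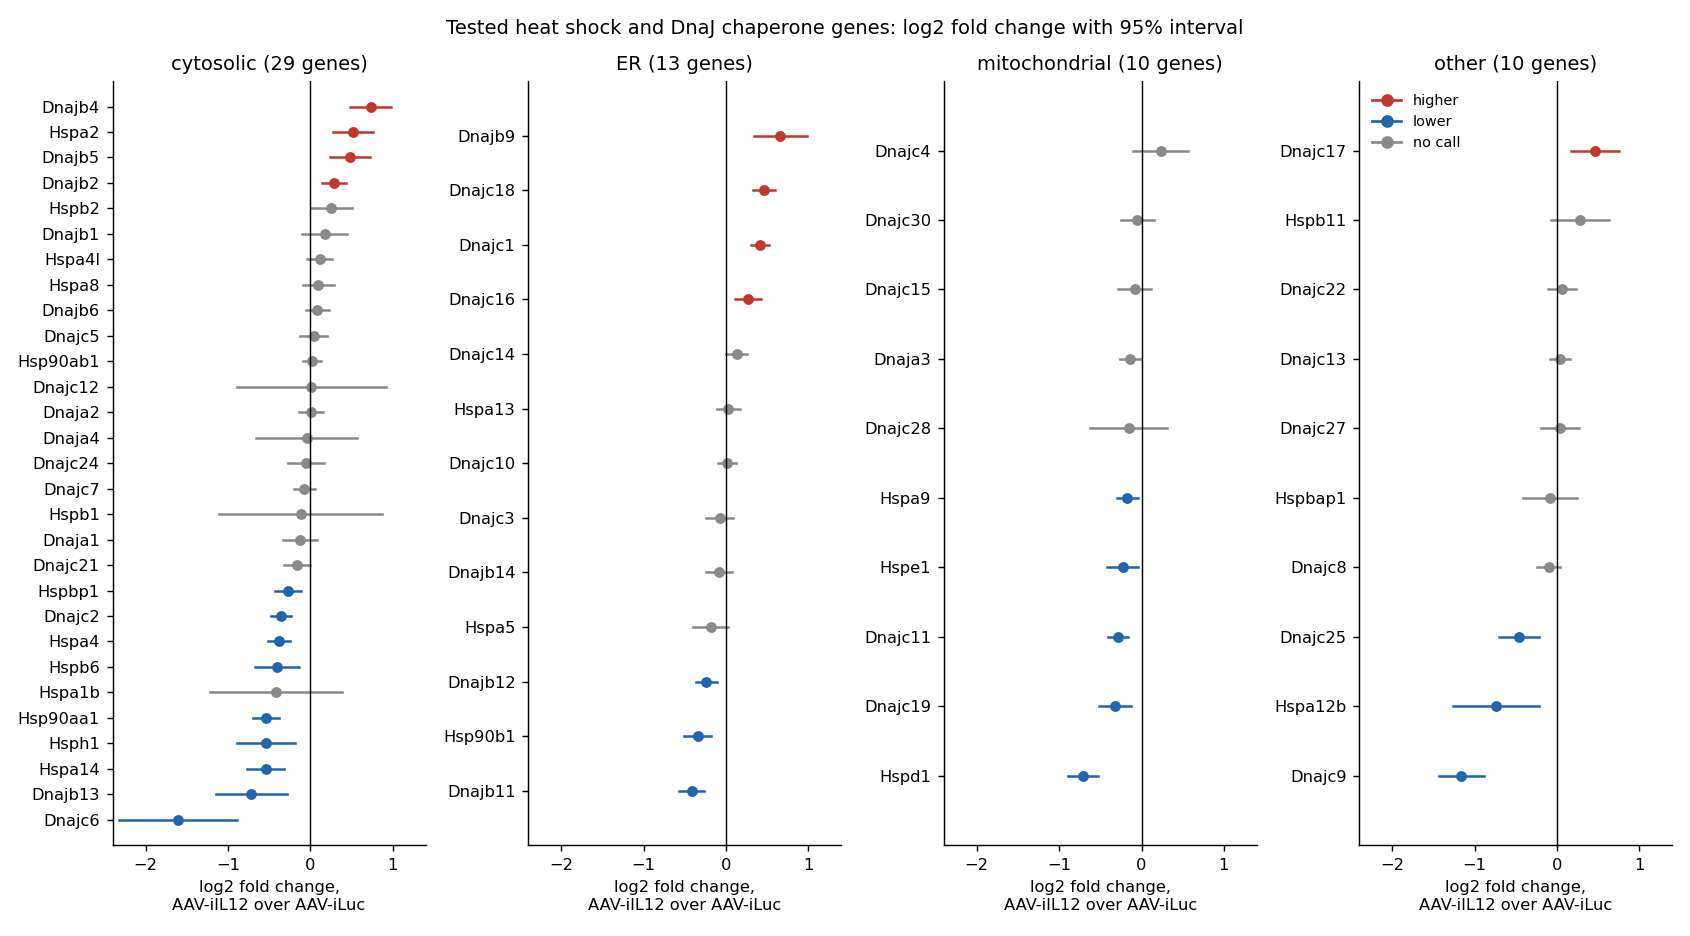
Log2 fold change (x axis, AAV-iIL12 over AAV-iLuc) of each of the 62 tested genes, with bars for the 95% interval of edgeR's quasi-likelihood fit, in 4 panels by compartment. Red points were called higher, blue points lower and grey points not called. The called genes run from -1.61 for Dnajc6 to 0.73 for Dnajb4, and no mitochondrial gene is red.

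Among 40 tested J proteins, 8 were called higher and 9 lower, with a median log2 fold change of -0.05. Among the 22 tested members that are not J proteins, 1 was called higher and 11 lower, with a median of -0.21. By compartment, 4 cytosolic genes were called higher and 9 lower of 29, and 4 ER genes higher and 3 lower of 13. No mitochondrial gene was called higher and 5 of 10 were called lower, while 1 of the other 10 was called higher and 3 lower. Of all genes tested, 23.5% were called higher and 23.7% lower, and the counts by part here and below are to be read beside those shares. These counts are descriptions, and neither the differences between compartments nor that between J proteins and the others was tested. Placement is uncertain for Dnajc14, Dnajc16, Dnajc22, Dnajc25 and Dnajc27, of which Dnajc16 is among the ER genes called higher and Dnajc25 among the other genes called lower.

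**Figure D2:**
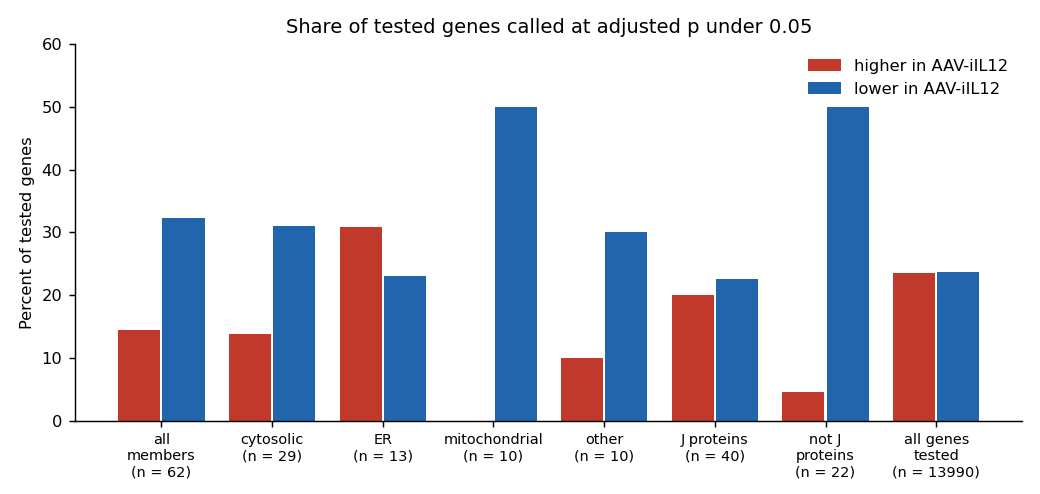
Percent of tested genes (y axis) called higher (red) or lower (blue) in AAV-iIL12 for all chaperones, for each compartment, for J proteins and other members, and for all 13990 genes tested. Lower calls reach 50.0% of mitochondrial genes and of members other than J proteins, against 23.7% of all genes.

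A few chaperones supplied most of the RNA of the set. The 5 genes with the most CPM (Hsp90ab1, Hsp90b1, Hspa8, Hsp90aa1 and Hspa5) held 61.7% to 62.7% of the summed CPM of the 74 genes in AAV-iIL12 and 60.8% to 63.0% in AAV-iLuc. Per kilobase of exon, Hsp90ab1 led in both groups, at 1072 ± 7.80 CPM per kilobase (SD, n = 3) in AAV-iIL12 and 1058 ± 55.6 (SD, n = 4) in AAV-iLuc. In AAV-iLuc the next levels per kilobase were Hsp90b1 at 316 ± 25.5, Hsp90aa1 at 310 ± 26.6, Hspa8 at 294 ± 32.2, Hspa5 at 265 ± 34.3 and Hspd1 at 259 ± 24.1. Each of these neighbours lay within the SD of the next, but the genes were measured in the same libraries. Within each AAV-iLuc library, Hsp90aa1 stood above Hspa8, and Hspa8 above Hspa5. In replicate 4, unlike the others, Hsp90b1 stood below Hsp90aa1 (301 against 316) and Hspa5 below Hspd1 (249 against 258). The order within these last pairs is not resolved. In AAV-iIL12, Hspa8 stood second at 315 ± 21.4, followed by Hsp90b1 at 249 ± 16.5, Hspa5 at 233 ± 17.4, Hsp90aa1 at 214 ± 3.10 and Hspd1 at 158 ± 9.34. Hspa9 (124 ± 4.38), Hspa4 (110.0 ± 4.17), Hspe1 (74.9 ± 7.94) and Dnaja2 (58.8 ± 2.79) filled places 7 to 10 in AAV-iLuc, and the same places in AAV-iIL12. Levels per length rest on the exon length of all annotated transcripts of a gene.

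**Figure D3:**
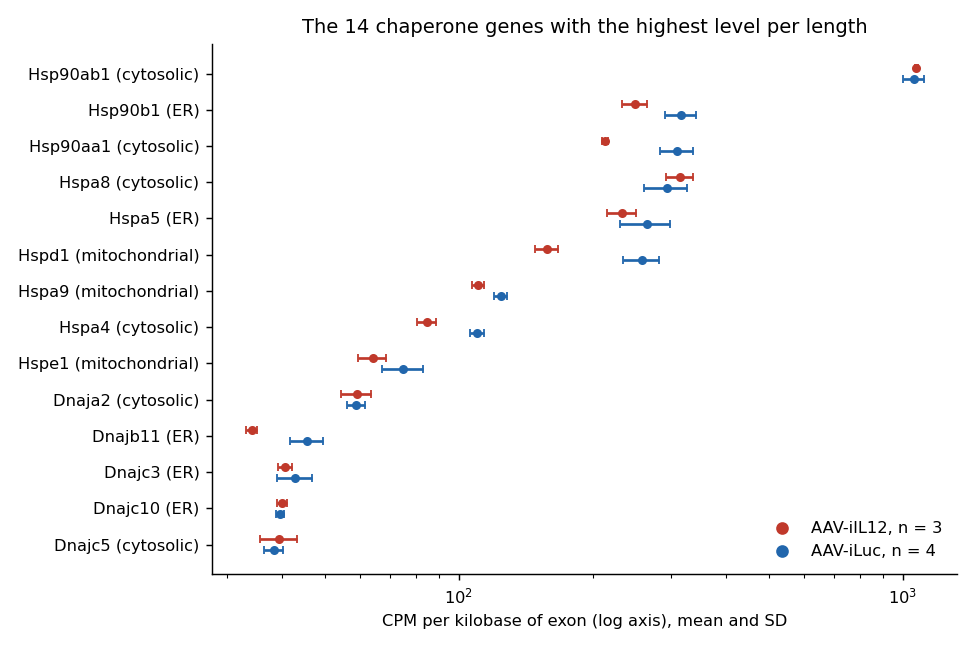
Mean level per kilobase of exon on a log axis, with bars for the SD, for the 14 genes with the highest level in AAV-iLuc, in AAV-iIL12 (red, n = 3) and AAV-iLuc (blue, n = 4). Hsp90ab1 stands alone near 1058, and Hspd1 and Hsp90aa1 show red points left of blue ones.

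Of the cytosolic HSP90 pair, Hsp90aa1 was called lower and Hsp90ab1 was not called. Hsp90aa1, the stress-inducible form, measured 837, 828 and 852 CPM in the AAV-iIL12 libraries and 1123, 1151, 1355 and 1241 CPM in the AAV-iLuc libraries. The groups did not overlap, with means of 839 ± 12.2 (SD, n = 3) and 1217 ± 104 CPM (SD, n = 4). The log2 fold change was -0.54 ± 0.07 (SE; adjusted p = 0.000161, edgeR quasi-likelihood). Hsp90ab1, the constitutive form, measured 3220, 3188 and 3233 CPM against 3014, 3078, 3393 and 3203 CPM. All its AAV-iIL12 libraries fell inside the range of the AAV-iLuc libraries, and the log2 fold change was 0.02 with a 95% interval of -0.09 to 0.13.

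A ratio of these genes within a library does not depend on the scaling between libraries. Hsp90aa1 CPM was 0.260, 0.260 and 0.264 of Hsp90ab1 CPM in AAV-iIL12, and 0.373, 0.374, 0.399 and 0.387 in AAV-iLuc. The groups did not overlap, and the mean log2 ratio differed by -0.55. The exact permutation test (two-sided, 35 ways to place 7 libraries in groups of 3 and 4) gave p = 0.0286, the smallest this design allows, and 0.0571 after Benjamini-Hochberg adjustment over the 4 ratios tested. The ratio is of CPM and not per length, so it compares groups and not the amounts of the 2 transcripts.

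Of the cytosolic HSP70 genes, Hspa8, the constitutive form, measured 1449, 1265 and 1347 CPM in AAV-iIL12 and 1149, 1187, 1460 and 1258 CPM in AAV-iLuc. The groups overlapped, and the 95% interval of the log2 fold change was -0.09 to 0.29. The heat-inducible Hspa1b measured 28.9, 20.1 and 16.0 CPM against 17.2, 16.0, 45.3 and 37.3 CPM. Its AAV-iLuc libraries fell into a low and a high pair, and the log2 fold change of -0.42 ± 0.36 had an adjusted p of 0.373. Hspa1a, its near-identical neighbour on chromosome 17, had 8, 8 and 0 counts against 18, 1, 6 and 8 and was not tested. The file headers gave no option for reads that fit both copies. Such reads may have been left out of the counts, so both levels and their sum are uncertain. Summed over the pair and divided by Hspa8, the log2 ratio differed by -0.42 (exact permutation p = 0.343), with overlapping groups.

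**Figure D4:**
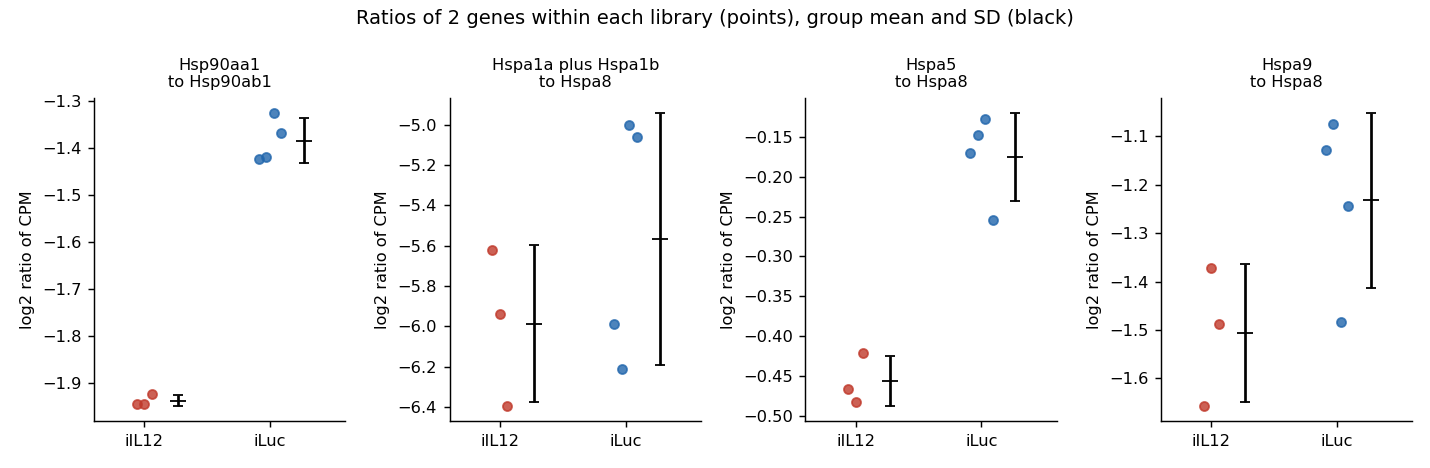
Log2 ratio of CPM of 2 genes within each library (points), with group mean and SD in black, for the 4 ratios tested. The y axes do not start at 0 and differ between panels. The Hsp90aa1 to Hsp90ab1 and Hspa5 to Hspa8 ratios do not overlap between groups, and the other panels do.

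Other HSP70-type genes of the cytosol went in both directions. Hspa14, an HSP70 relative of the ribosome, was called lower at 31.0 ± 2.80 against 45.2 ± 5.34 CPM (log2 fold change -0.54 ± 0.10, adjusted p = 0.00161). Hspa2, known from the testis, was called higher at 24.0 ± 3.83 against 16.8 ± 0.944 CPM (0.52 ± 0.11, adjusted p = 0.00298, edgeR). It was the 1 member outside the J proteins called higher, and it measured 28.0, 20.3 and 23.8 CPM against 16.6, 16.4, 18.1 and 15.9 CPM. The groups of Hspa2 did not overlap.

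The HSP110 genes, exchange factors of HSP70, were lower for 2 of 3. Hspa4 measured 442, 481 and 480 CPM against 607, 606, 638 and 582 CPM, with no overlap and a log2 fold change of -0.38 ± 0.06 (adjusted p = 0.000512, edgeR). Hsph1, the heat-inducible HSP110, measured 121, 90.4 and 111 CPM against 130, 132, 203 and 161 CPM. The groups stood close together, with the highest value in AAV-iLuc replicate 3, and the log2 fold change was -0.54 ± 0.16 (adjusted p = 0.0169). Without AAV-iIL12 replicate 2 it was -0.42 and no longer called (adjusted p = 0.0721, edgeR). Hspbp1, a nucleotide exchange factor, was called lower at 29.2 ± 2.12 against 35.2 ± 1.64 CPM, a call lost without AAV-iIL12 replicate 2 (adjusted p = 0.0524).

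Among the J proteins of the cytosol, those of the B class supplied the higher calls. Dnajb4, a partner of Hspa8, measured 96.4, 76.7 and 76.3 CPM in AAV-iIL12 and 43.7, 59.0, 51.5 and 46.0 CPM in AAV-iLuc. The groups were well apart, and Dnajb4 had the highest log2 fold change of the 62 genes, 0.73 ± 0.11 (adjusted p = 0.000492, edgeR). Its closest relative in role, the heat-inducible Dnajb1, measured 107, 84.7 and 85.4 CPM against 69.0, 73.9, 96.5 and 88.3 CPM. The Dnajb1 groups overlapped, and the 95% interval of its log2 fold change was -0.10 to 0.45. The difference between the fold changes of Dnajb4 and Dnajb1 was not tested.

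Dnajb5 (15.2 ± 2.10 against 10.9 ± 0.530 CPM, log2 fold change 0.48 ± 0.11) and Dnajb2 (44.8 ± 2.84 against 36.6 ± 1.76 CPM, 0.29 ± 0.07) were also called higher without overlap. Dnajb6, which keeps aggregating proteins soluble, measured 36.1 ± 2.32 against 34.0 ± 0.463 CPM and was not called. The A class, which works with HSP70 on a broad range of clients, had no call in 4 genes: Dnaja1 measured 101 ± 7.24 against 111 ± 14.05 CPM and Dnaja2 175 ± 13.4 against 175 ± 8.29 CPM. Dnajb13, a J protein of motile cilia, was called lower at 2.81 ± 0.465 against 4.59 ± 0.784 CPM, a call lost without AAV-iIL12 replicate 3 (adjusted p = 0.0578, edgeR).

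In the C class of the cytosol, 2 of 7 tested genes were called lower. Dnajc2, which works at the ribosome, measured 48.7, 50.8 and 51.8 CPM against 65.5, 60.1, 66.7 and 65.8 CPM, with no overlap (log2 fold change -0.36 ± 0.06, adjusted p = 0.000568, edgeR). Dnajc6, auxilin, which uncoats clathrin vesicles, had the lowest log2 fold change of the set, -1.61 ± 0.32, and was chosen for mention after its values were seen. It rests on 6, 17 and 14 counts against 51, 30, 36 and 40 counts. Dnajc5, the J protein of secretory vesicles, measured 274 ± 26.3 against 266 ± 13.1 CPM and was not called.

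The small heat shock proteins, which hold unfolded proteins without ATP, were scarce. Hspb1 measured 15.5, 4.34 and 5.27 CPM against 5.30, 6.85, 9.47 and 14.3 CPM, with overlapping groups and a 95% interval of the log2 fold change of -1.11 to 0.88. Hspb6 was called lower at 7.72 ± 1.08 against 10.2 ± 0.663 CPM (-0.41 ± 0.12), a call lost without AAV-iIL12 replicate 3 (adjusted p = 0.0833, edgeR). Hspb8 stayed at or below 0.417 CPM in every library and was not tested. Of the 12 genes not tested, Dnajb3, Dnajb8, Dnajc5g and Hspb3 had 0 counts in all 7 libraries, which does not show that their RNA was absent. The other 8 were Dnajb7, Dnajc5b, Hspa1a, Hspa1l, Hspa12a, Hspb7, Hspb8 and Hspb9.

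**Figure D5:**
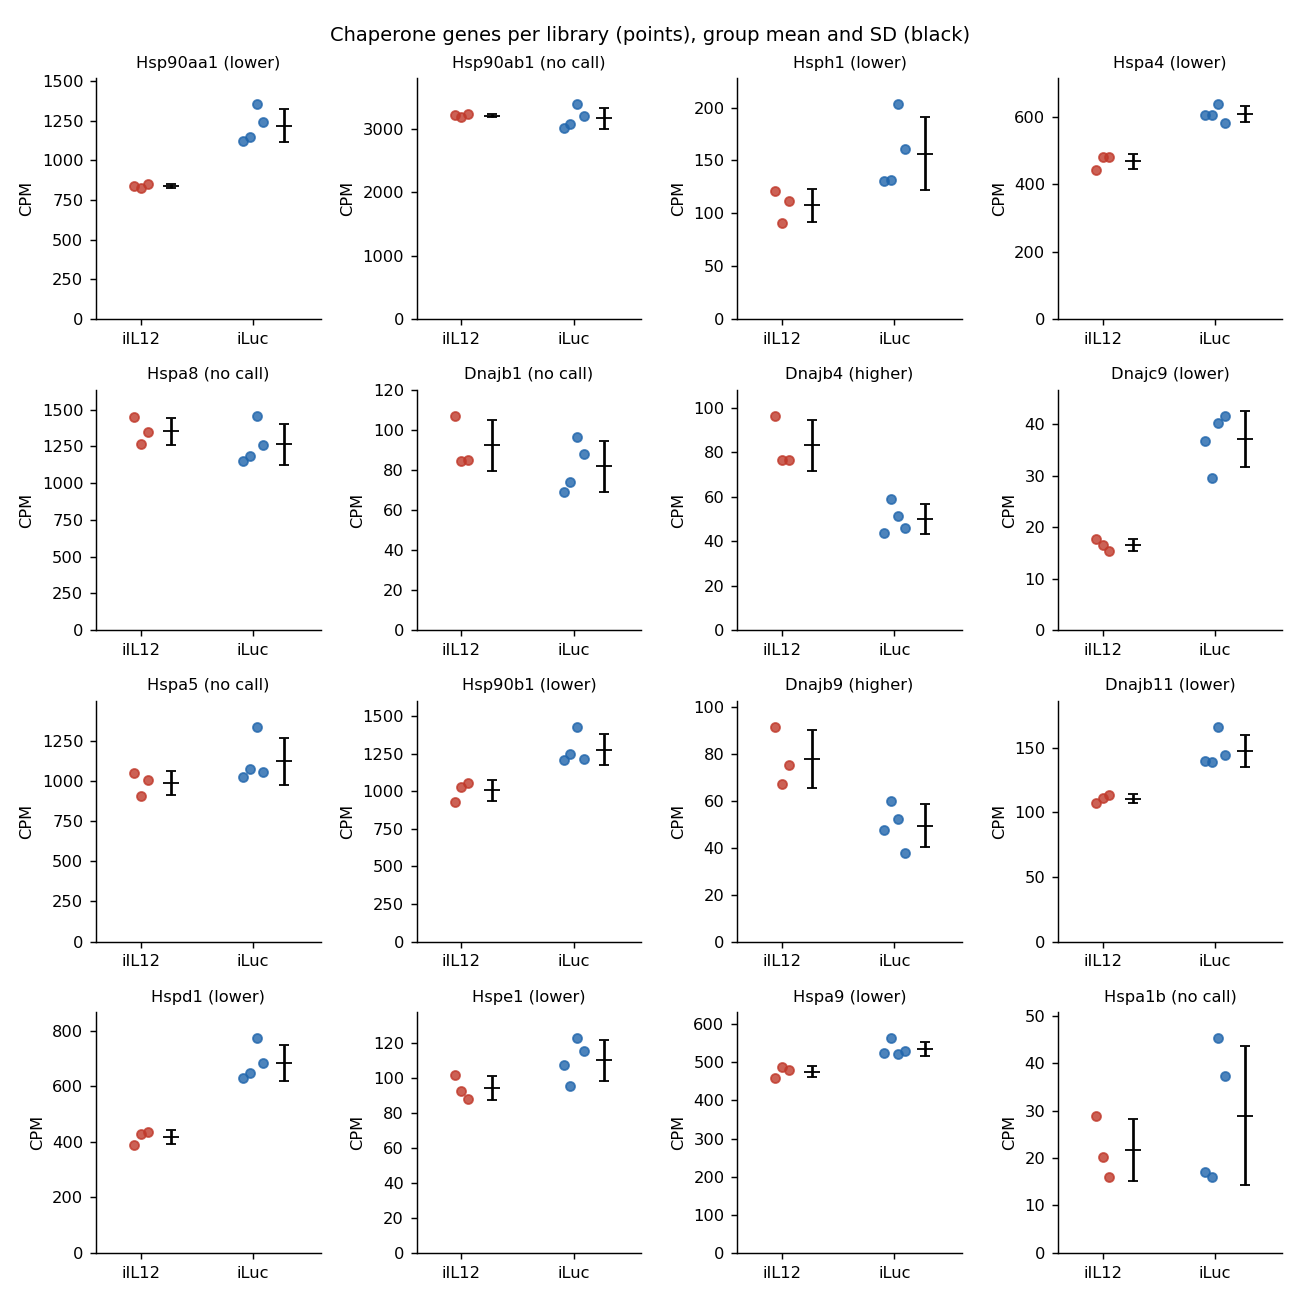
CPM (y axis, from 0) of 16 chaperone genes in each library (points: AAV-iIL12 red, n = 3, AAV-iLuc blue, n = 4), with group mean and SD in black and the call in the panel title. Hsp90aa1, Hspd1, Dnajc9 and Dnajb4 show groups well apart, while Hsp90ab1, Hspa8 and Hspa5 overlap.

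All 13 ER members were tested. Hspa5, the ER HSP70 also known as BiP, measured 1049, 906 and 1006 CPM in AAV-iIL12 and 1021, 1071, 1336 and 1055 CPM in AAV-iLuc. The groups overlapped, AAV-iLuc replicate 3 stood highest, and the log2 fold change of -0.18 ± 0.10 was not called (adjusted p = 0.141, edgeR). It was called lower with scaling by library size only (-0.28, adjusted p = 0.0343) or by the upper quartile (-0.26, adjusted p = 0.0447), both edgeR fits. Divided by Hspa8 in the same library, Hspa5 was 0.724, 0.716 and 0.747 against 0.889, 0.902, 0.915 and 0.838. Those ratios did not overlap, and the log2 difference of -0.28 had an exact permutation p of 0.0286, or 0.0571 adjusted over the 4 ratios.

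Hsp90b1, the ER HSP90 also known as GRP94, measured 930, 1027 and 1058 CPM against 1211, 1249, 1428 and 1216 CPM. The groups did not overlap, and the log2 fold change was -0.34 ± 0.07 (adjusted p = 0.00333, edgeR). Dnajb11, the J protein that brings clients to Hspa5, measured 107, 111 and 114 CPM against 140, 139, 166 and 145 CPM and was lower (-0.42 ± 0.07, adjusted p = 0.000754, edgeR). Its groups did not overlap either. Dnajb12, a J protein of the ER membrane that faces the cytosol, was lower at 49.5 ± 1.65 against 58.3 ± 2.94 CPM (-0.24 ± 0.06).

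Dnajb9, an ER J protein that binds the stress sensor IRE1 and serves ER-associated degradation, went the other way. It measured 91.5, 67.2 and 75.2 CPM against 47.5, 59.7, 52.2 and 37.9 CPM, with no overlap and a log2 fold change of 0.66 ± 0.14 (adjusted p = 0.00378, edgeR). Dnajb9 CPM was 0.854, 0.607 and 0.662 of Dnajb11 CPM in AAV-iIL12, against 0.340, 0.429, 0.315 and 0.262 in AAV-iLuc. That ratio was chosen after the values were seen and was not tested.

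The other ER genes called higher were J proteins of the C class. Dnajc1, which spans the ER membrane, measured 117, 110.0 and 106 CPM against 85.7, 82.8, 82.2 and 83.1 CPM (0.41 ± 0.05, adjusted p = 9.57e-05, edgeR). Dnajc18 measured 58.3, 56.2 and 55.4 CPM against 44.1, 41.9, 38.7 and 39.7 CPM (0.46 ± 0.06, adjusted p = 0.000196, edgeR). Neither gene's groups overlapped. Dnajc16 was called higher at 83.5 ± 7.13 against 69.3 ± 4.64 CPM (0.27 ± 0.07), a call lost without AAV-iIL12 replicate 3 (adjusted p = 0.0535) and with library size only (adjusted p = 0.0562, edgeR). The luminal cofactors Dnajc3 (209 ± 7.79 against 220 ± 19.97 CPM) and Dnajc10 (200 ± 4.88 against 198 ± 3.75 CPM) were not called, nor was Hspa13 (83.4 ± 5.94 against 81.7 ± 3.77 CPM).

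In mitochondria, 9 of 10 log2 fold changes were negative, while the median over all genes tested was -0.01. Lower calls were made for 5 of the 10 genes (50.0%), against 23.7% of all genes tested. With no higher call, calls in either direction also made 50.0%, against 47.2% of all genes tested. The share of negative values over all genes was not counted. The negative values ran from -0.71 for Hspd1 to -0.05 for Dnajc30, which was not called. Hspd1, the HSP60 chaperonin, measured 389, 427 and 436 CPM in AAV-iIL12 and 631, 648, 773 and 683 CPM in AAV-iLuc. The groups lay far apart, and the log2 fold change was -0.71 ± 0.08 (adjusted p = 7.07e-05, edgeR). Hspe1, the HSP10 lid of Hspd1, measured 102, 92.7 and 88.5 CPM against 108, 95.6, 123 and 116 CPM. Its groups overlapped, and its log2 fold change of -0.23 ± 0.08 passed by a narrow margin (adjusted p = 0.0499, edgeR). It was not called by limma-voom (adjusted p = 0.0504) or with median-of-ratios scaling in edgeR (0.0555). Leaving out replicate 2 or 3 of AAV-iIL12 lost that call (adjusted p = 0.134 and 0.188, edgeR), as did leaving out replicate 1, 3 or 4 of AAV-iLuc (0.0659, 0.122 and 0.107).

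Hspd1 CPM was 3.83, 4.60 and 4.92 times Hspe1 CPM in AAV-iIL12 and 5.86, 6.78, 6.29 and 5.91 times in AAV-iLuc. This ratio was chosen after the values were seen and was not tested. The 2 genes sit head to head on chromosome 1 (GRCm39): Hspd1 on the minus strand at chr1:55116994-55127402 and Hspe1 on the plus strand at chr1:55127291-55130466. Their annotated exons and introns share 112 bases, and the counts were made by strand.

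Hspa9, the mitochondrial HSP70 also known as mortalin, measured 459, 488 and 480 CPM against 526, 563, 522 and 531 CPM. The groups did not overlap, but the log2 fold change of -0.17 ± 0.06 was small (adjusted p = 0.0283, edgeR). Leaving out replicate 1 or 3 of AAV-iIL12, or 2 or 4 of AAV-iLuc, lost the call, with adjusted p from 0.0505 to 0.0742 (edgeR), and so did testing without a low-count filter (0.0760). Hspa9 over Hspa8 differed by -0.27 in log2 ratio, with overlapping groups and an exact permutation p of 0.114 (0.152 adjusted over the 4 ratios).

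Dnajc19, which works with HSP70 at the inner-membrane import channel, measured 15.9, 14.9 and 15.4 CPM against 17.5, 19.0, 21.2 and 19.2 CPM (-0.32 ± 0.09, adjusted p = 0.0113, edgeR). Dnajc11, a J protein of the cristae-organising complex, measured 51.4, 51.9 and 50.4 CPM against 59.5, 64.6, 65.6 and 60.6 CPM (-0.29 ± 0.06, adjusted p = 0.00174, edgeR). Neither gene's groups overlapped. Dnaja3, the general J partner of Hspa9, measured 68.2, 72.6 and 63.2 CPM against 72.4, 74.1, 76.7 and 75.4 CPM, overlapped and was not called (adjusted p = 0.0769, edgeR). It was called lower with scaling by library size only (adjusted p = 0.00878, edgeR) or by the upper quartile (0.0132, edgeR). Leaving out AAV-iIL12 replicate 2 also gave that call (adjusted p = 0.0387, edgeR). Summed over the 10 mitochondrial genes, the level was 1132 to 1198 CPM in AAV-iIL12 and 1461 to 1634 CPM in AAV-iLuc, and Hspd1 and Hspa9 made up most of it.

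Of the 11 members placed elsewhere, Dnajc9, a J protein that also binds histones H3 and H4, had the lowest log2 fold change. It measured 17.7, 16.6 and 15.3 CPM in AAV-iIL12 and 36.7, 29.6, 40.3 and 41.6 CPM in AAV-iLuc. The groups were far apart (-1.16 ± 0.12, adjusted p = 4.29e-05, edgeR). Dnajc25 was lower at 13.97 ± 1.84 against 19.3 ± 1.52 CPM (-0.46 ± 0.11, adjusted p = 0.00552, edgeR), and Dnajc17, a J protein linked to splicing, was higher at 10.7 ± 0.843 against 7.74 ± 1.08 CPM (0.46 ± 0.13, adjusted p = 0.0141). Hspa12b, a distant HSP70 relative known from endothelium, was called lower at 3.77 ± 0.954 against 6.36 ± 1.58 CPM. Leaving out replicate 1 of AAV-iIL12 lost that call (adjusted p = 0.0864, edgeR), as did leaving out replicate 3 or 4 of AAV-iLuc (0.0647 and 0.0588).

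Promoter sequence was read for 60 of the 74 genes from RefSeq windows of 250 bases before to 50 bases after a start site, on GRCm38.p6. Dnajc2, Dnajc5, Dnajc5b, Dnajc11, Dnajc12, Dnajc18, Dnajc22, Dnajc30, Hsp90aa1, Hsp90ab1, Hspa8, Hspa9, Hspa13 and Hspb2 had no entry. Heat shock factors bind inverted GAA units, and 3 such units in a row, GAANNTTCNNGAA, were searched on both strands. They stood in the windows of 4 of 60 chaperone genes (6.7%), against 0.662% of 27025 genes with a window. The 4 were Hspd1, Hspe1 and Hsph1, all called lower, and Dnajb6, not called. Of the 7 fits that left out 1 library, Hspd1 kept its call in 7, Hsph1 in 6 and Hspe1 in 2. A pair of units as GAANNTTC, which the longer motif contains, stood in 14 of 60 genes (23.3%, against 9.036% of all genes), and as TTCNNGAA in 6 of 60 (against 9.599% of all genes). None of the 8 matched genes called higher held the 3-unit motif. With the motif in 0.662% of all genes, its absence from 8 genes says little about direction.

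The stretches that hold these motifs are shown to let the units be seen beside the values above. The motif is in capitals, and positions are counted from the start site of the window shown. Dnajb4 also had a window at another start site, which held none of these motifs. Hspd1 and Hspe1 share 1 stretch between these RefSeq start sites, read on opposite strands. It holds 4 units in a row, so that the 3-unit motif fits in 2 places. In the GENCODE vM21 annotation, that stretch and the one of Hsph1 lie within an exon.
Hspe1 (chr1:55088053-55088082, plus strand, 95 to 66 bases before its start): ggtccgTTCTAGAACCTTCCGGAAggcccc
Hspd1 (the same bases, minus strand, 150 to 121 bases before its start): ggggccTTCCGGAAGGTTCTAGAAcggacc
Hsph1 (chr5:149636279-149636308, minus strand, 7 to 36 bases after its start): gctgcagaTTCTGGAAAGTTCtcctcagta
Dnajb4 (chr3:152193846-152193995, minus strand, 150 bases before its start; capitals mark TTCNNGAA): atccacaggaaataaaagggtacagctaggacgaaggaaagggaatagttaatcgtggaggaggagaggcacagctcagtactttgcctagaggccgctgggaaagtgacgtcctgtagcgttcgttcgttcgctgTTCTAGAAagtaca
Hspa1b (chr17:34959239-34959388, minus strand, 150 bases before its start; capitals mark GAANNTTC): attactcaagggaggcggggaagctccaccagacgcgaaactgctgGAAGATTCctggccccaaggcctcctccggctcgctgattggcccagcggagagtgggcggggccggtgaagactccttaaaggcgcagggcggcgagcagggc
The motif did not follow the calls throughout: Dnajb6, with 3 units, was not called, and Hspb6, called lower, held only a pair. Since Hspd1 and Hspe1 share a stretch, the called genes with 3 units stand at 2 loci. A match is a description of letters and not of a bound site.

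The ER stress element, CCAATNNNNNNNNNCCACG or its reverse complement, was searched in the same windows. It stood in 3 of 60 chaperone genes (5.0%), against 0.137% of the 27025 genes, and all 3 were ER members: Hspa5 and Dnajc3, not called, and Hsp90b1, called lower. Dnajb9, called higher, held none in its window. Their stretches show the element in capitals, once in Hspa5 and Dnajc3, and on each strand once in Hsp90b1. The stretch of Hspa5 lies within an exon of the GENCODE vM21 annotation.
Hspa5 (chr2:34772020-34772049, plus strand, 70 to 41 bases before its start): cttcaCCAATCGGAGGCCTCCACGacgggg
Dnajc3 (chr14:118937782-118937931, plus strand, 150 bases before its start): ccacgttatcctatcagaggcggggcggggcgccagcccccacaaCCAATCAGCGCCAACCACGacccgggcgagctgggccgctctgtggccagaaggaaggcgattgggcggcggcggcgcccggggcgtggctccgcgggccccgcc
Hsp90b1 (chr10:86705510-86705674, minus strand, 230 to 66 bases before its start): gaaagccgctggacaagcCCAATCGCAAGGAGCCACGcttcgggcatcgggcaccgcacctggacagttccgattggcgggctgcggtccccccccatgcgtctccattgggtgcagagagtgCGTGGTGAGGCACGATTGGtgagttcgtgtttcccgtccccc
Genes with the same element thus differed in call, and the windows hold only the bases near the start.

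Of 68 further genes of the chaperone network, all tested, 8 were called higher and 36 lower, with a median log2 fold change of -0.19. The 44 calls made 64.7% of them, against 47.2% of all genes tested. These genes were chosen with earlier results of these data known, so the shares describe the list and are no test of it. Higher calls made 11.8% and lower calls 52.9%, against 23.5% and 23.7% of all genes, and the counts by group that follow are to be read beside those shares. In the cytosolic chaperonin with its prefoldin helpers, which folds actin and tubulin, 11 of 14 were lower and 1 higher: all 8 chaperonin subunits were lower, from -0.44 for Cct8 to -0.21 for Cct4, and Pfdn5 was higher at 0.30. Cct5, which with Cct2 had the highest levels per length in an order not resolved between them, measured 333 against 432 CPM (-0.37 ± 0.07, adjusted p = 0.00126, edgeR). Among 15 HSP90 co-chaperones, 8 were lower and 2 higher, Unc45a (0.31 ± 0.06, adjusted p = 0.00133, edgeR) and Cdc37l1 (0.32). Fkbp5, which tunes the glucocorticoid receptor, was lower at 51.8 against 90.1 CPM (-0.80 ± 0.07, adjusted p = 1.06e-05, edgeR). Fkbp4, a steroid receptor co-chaperone and the most abundant of them per length, was lower at 421 against 623 CPM (-0.57 ± 0.09, adjusted p = 0.000507, edgeR). Stip1, which links HSP70 to HSP90, was lower at 160 against 241 CPM (-0.59 ± 0.08, adjusted p = 0.000215, edgeR).

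Among 12 HSP70 partners, 7 were lower and 2 higher. The higher ones were Bag3, a heat-inducible HSP70 partner, at 126 against 89.7 CPM (0.49 ± 0.08, adjusted p = 0.000840), and Sil1, the exchange factor of Hspa5, at 44.8 against 30.6 CPM (0.55 ± 0.09, adjusted p = 0.000517, edgeR). Hyou1, the HSP110 of the ER, was lower (-0.45 ± 0.09), and Bag6, the most abundant partner, was not called at 388 against 414 CPM. Of 9 other ER folding genes, 5 were lower and none higher, with Sdf2l1 at -0.66 and Pdia6 at -0.57. The most abundant per length, P4hb, was lower at 1277 against 1597 CPM (-0.32 ± 0.07, adjusted p = 0.00507, edgeR). Htra2 (-0.45) and Afg3l2 (-0.25) were lower among 7 mitochondrial quality-control genes, and the other 5, with the abundant Lonp1 at 388 against 403 CPM, were not called.

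Of the 7 relatives outside the symbol rule, Hscb (0.64), Cryab (0.32) and Gak (0.21) were called higher, and Serpinh1 and Sec63 lower. Serpinh1, the collagen chaperone, measured 540, 506 and 558 CPM against 756, 759, 974.8 and 815 CPM (-0.63 ± 0.09, adjusted p = 0.000349, edgeR). In the same order of libraries, the fibroblast and pericyte marker sums were 114, 75.4 and 42.4 CPM against 65.9, 62.0, 228 and 114 CPM. The part of fibroblasts in the Serpinh1 values was not tested. The transcription factor Hsf1 measured 61.3 against 65.5 CPM and was not called (adjusted p = 0.257, edgeR), nor was Hsbp1, a binding protein of that factor, at 79.9 against 73.9 CPM. Hsf2 was lower at 15.0 against 21.1 CPM (-0.50 ± 0.10, adjusted p = 0.00257, edgeR).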

How the data were processed

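The deposited files hold unnormalized fragment counts, which the authors made, per the file headers, with featureCounts 1.6.0 over exons by gene, reverse-stranded and paired-end, on GENCODE vM32. The gene length in the other column used is, per the file headers, the exon length in bases. The submitters' processing notes also name FastQC 0.11.8, STAR 2.7.9a, GRCm39, edgeR and limma. Reads that map to several places had no option in those headers. Symbols and gene types came from GENCODE vM21 by identifier (52029 matched, with 99.4% of counts). Gene coordinates are on GRCm39, and those of promoters on GRCm38.p6.

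All 7 libraries entered a fit with edgeR 4.0.16 in R 4.3.3 (TMM, filterByExpr, quasi-likelihood F test, Benjamini-Hochberg over 13990 genes, threshold 0.05). The SE was derived from the F statistic. The code was tested on simulated data. No replicates of a group agreed within sampling noise. The members and lists were chosen with earlier results of these data known. Members were named where they were 1 of a list of core chaperones, or were called with mean log2 CPM 2 or above, up to the 20 smallest p in each direction. In the network list, the 3 smallest adjusted p in each direction and the most abundant gene per class set the rule, and further genes named there were chosen after their values were seen. Compartments came from general knowledge of each protein. Alternatives were 3 other scalings, 2 other filters, DESeq2 1.42.0, limma-voom (limma 3.58.1), a threshold of 0.01, a replicate block, and leaving out each library. No sequence of chromosome 18 and no untranslated sequence beyond 30 bases is shown.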

Additional observations from a re-analysis of the deposited data

Results flagged for a closer look

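In AAV-iLuc, 1 library lay far from the other 3 for 4 of 44 named chaperones, by Dixon's 95% criterion for the gap to the nearest value over the range, which chance exceeds for about 1 in 20 groups. All 4 were in replicate 3: Hspa5 was highest at 1336 CPM, Dnaja1 highest at 132 CPM, Hspb8 highest at 0.417 CPM, and Dnajc10 lowest at 193 CPM. Hspb8 rests on a few counts. The same library had the highest value of its group for 30 of the 62 tested chaperones (48.4%), against 26.6% of all genes tested. Among the 10 mitochondrial members it was highest in 7. It also had the highest fibroblast marker sum, 228 CPM against 62.0 to 114 CPM in the other AAV-iLuc libraries, and the lowest total, 16356653 counts. Whether these go together was not tested. Without replicate 3 of AAV-iLuc, 9 chaperones were called higher and 18 lower.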

How the results depend on the processing

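Of the 29 calls, 21 were the same in all 7 fits that left out 1 library and 19 under all 16 alternatives, and none changed sign. Calls of members ran from 8 to 10 higher and 16 to 19 lower without 1 library. With library size only there were 8 higher and 26 lower, of which 5 ER genes were lower, and 23.5% of calls were higher, against 31.0% with TMM. That scaling moved the median of all genes from -0.01 to -0.10. At a threshold of 0.01, 12 members were lower, of which 5 were cytosolic and 2 mitochondrial, and 0 of the other members were higher. Mitochondrial lower calls ran from 3 to 5 without 1 library (3 when replicate 3 of AAV-iIL12 or 4 of AAV-iLuc was left out), and without AAV-iLuc replicate 4 there was 1 mitochondrial gene higher, Dnajc4. The cause was not tested. With 3 against 4 libraries, ratios cannot reach a p under 0.0286, or under 0.0667 and 0.05 without an AAV-iIL12 or AAV-iLuc library.

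The deviations of same-numbered libraries correlated at r = 0.094, 0.015 and -0.053. In pairs with different numbers, r ran from -0.142 to 0.106. Whether same-numbered libraries share more than a number was not tested. With a replicate block, 8 members were called higher and 17 lower, and 3 mitochondrial members lower. For scarce genes the depth limits what can be seen: the 95% interval of Dnajc12, below 2 CPM in every library, ran from -0.89 to 0.91 in log2 fold change.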
